A study of Mus musculus with 12 samples.

Results

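Snhg genes, the small nucleolar RNA host genes, are transcribed into RNAs whose introns carry small nucleolar RNAs (snoRNAs). The 7 genes described here, Snhg3, Snhg5, Snhg7, Snhg8, Snhg9, Snhg16 and Snhg18, are those of 17 mouse Snhg genes in a RefSeq table for which the array held a probe bearing a RefSeq accession of the gene. They are 7 of 2514 named genes and of 72515 features that could be tested, where a feature is a named gene or a probe without a gene name. All 7 passed the filter on dim probes, since their spots were well above background on all 12 arrays. Each gene was read by 1 probe, and the Snhg16 probe carries 1 of the 3 accessions that the table gives for that gene.

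The spleens came from female BALB/c mice that were 6 weeks old. OVA mice received 3 intraperitoneal injections of OVA (ovalbumin, an egg-white protein used to sensitise mice) at 2 mg/kg on days 1, 3 and 5, and control mice received the same injections of normal saline. Spleens were taken on day 14 or day 28, giving 4 OVA and 2 control arrays for each day, with 1 single-colour Agilent array per sample. No deletion, transgene or other agent is named for any group. The labels do not say how the mice were housed or whether spleens were handled in parallel, so the p-values measure the spread between these arrays.

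The host RNA is spliced, and the snoRNA is trimmed out of the removed intron. Box H/ACA snoRNAs guide the conversion of uridine to pseudouridine in ribosomal RNA, and box C/D snoRNAs guide methylation of the ribose. Many host RNAs open with a pyrimidine tract like that of ribosomal protein mRNAs, and several code for no protein and are degraded by nonsense-mediated decay when translated, so the spliced RNA and the snoRNA of a host can stand at unlike levels. The probes read the host transcripts by their accessions. The members hold 12 annotated snoRNAs in the RefSeq table (GRCm38.p6), and none of these had a named probe, so no snoRNA was measured here.

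By the snoRNAs inside them, 4 members are hosts of the H/ACA class. Snhg3 on chromosome 4 holds Snora73a and Snora73b, which act in the processing of ribosomal RNA. Snhg7 on chromosome 2 holds Snora17 and Snora43, Snhg8 on chromosome 3 holds Snora24, and Snhg9 on chromosome 17 holds Snora78. The C/D hosts are Snhg16 on chromosome 11, with Snord1a, Snord1b and Snord1c, and Snhg18 on chromosome 15, with Snord123. Snhg5 on chromosome 9 holds 2 snoRNAs that the table gives without a class. In human tumour cells, the host RNAs SNHG5, SNHG7, SNHG8 and SNHG16 have been studied in their own right for effects on growth.

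Snhg9 lies on the strand opposite Rps2, the gene of a protein of the small ribosomal subunit, and their spans overlap. The nearest other protein-coding genes are Phactr4 for Snhg3, Zfp949 for Snhg5, Dipk1b for Snhg7, Prss12 for Snhg8, Rnf151 for Snhg9, St6galnac2 for Snhg16 and Sema5a for Snhg18. None of these had a value used here.

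Start regions are shown for 4 members, Snhg7 and Snhg8, whose levels differed in a comparison below, Snhg5, which has the same motif upstream, and Snhg16, which lacks it. Each sequence runs 5′ to 3′ on the gene's strand, with 50 bases before the start and 50 from it on, and capitals mark TATAAA. They were taken from RefSeq (GRCm38.p6): Snhg7 at chr2:26640195-26640294 on the minus strand, Snhg8 at chr3:123508287-123508386 on the minus strand, Snhg5 at chr9:88522848-88522947 on the minus strand and Snhg16 at chr11:116671610-116671709 on the plus strand.
Snhg7: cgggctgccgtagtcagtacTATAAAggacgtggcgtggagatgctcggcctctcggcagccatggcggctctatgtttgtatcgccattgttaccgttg
Snhg8: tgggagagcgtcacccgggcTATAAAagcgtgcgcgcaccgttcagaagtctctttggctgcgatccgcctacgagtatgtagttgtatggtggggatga
Snhg5: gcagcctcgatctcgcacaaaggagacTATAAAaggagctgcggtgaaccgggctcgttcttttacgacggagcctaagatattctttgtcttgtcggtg
Snhg16: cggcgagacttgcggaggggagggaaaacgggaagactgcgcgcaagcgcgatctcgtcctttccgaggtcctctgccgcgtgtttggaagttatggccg

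In windows of 300 bases, 250 before the start and 50 from it on, all 7 members had a RefSeq sequence. TATAAA, the core of the TATA box, was searched on both strands and was present in 5 of 7 members, against 13.6% of 32851 promoters in the same table. Its first base lay 30 bases before the start in Snhg7 and in Snhg8 and 23 bases before it in Snhg5. In Snhg3 and Snhg9 it lay 22 and 34 bases after the start, and Snhg9 had another on the opposite strand 120 bases before it. The genes with the same spacing, Snhg7 and Snhg8, had differences of opposite sign at day 28, of which only that of Snhg7 passed. A link between motif and level was not tested.

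A run of at least 6 C or T letters opening with C within 10 bases of the start, the letters of a pyrimidine tract, was found on the gene's strand in Snhg7, Snhg8, Snhg9, Snhg16 and Snhg18, against 19.2% of promoters. CCAAT was present on either strand in 3 of 7 (37.4% of promoters), CACGTG in 1 (7.15%) and CGCATGCG in 0 (1.87%). The number of CG pairs was 16 to 36 per member window, with a median of 7 over all promoters. These matches describe letters only.

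Levels below are log2 of the processed spot signal minus the 75th percentile of the array, so 0 is the signal at that percentile. Levels of different probes are not compared. Of 3 slides, 1 carried the controls of both days and each of the others carried 1 of the OVA groups. Treatment and slide therefore cannot be told apart for OVA against control, and day and slide cannot be told apart between the OVA days. The same holds for the difference of the OVA effect between days, which contains the difference between the OVA slides. The control days share a slide. The 75th percentile was 267 to 288 signal units on the OVA arrays of day 14, 484 to 549 on those of day 28 and 316 to 368 on the controls, and the part of this in the differences below was not tested. Arrays of a group correlated at 0.980 to 0.994. Outlier flags numbered 8 to 1248 spots per array, and no member spot was among them. The spots within 5 rows and columns of a member spot departed, in their median, by -0.16 to 0.17 from their own medians over the arrays. Probes were named only by RefSeq accessions of non-coding transcripts, a rule that gives no name to a probe of a coding transcript. None of the 39 spleen cell and carry-over markers had a named probe under this rule, so the labelled tissue could not be checked.

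**Figure D1:**
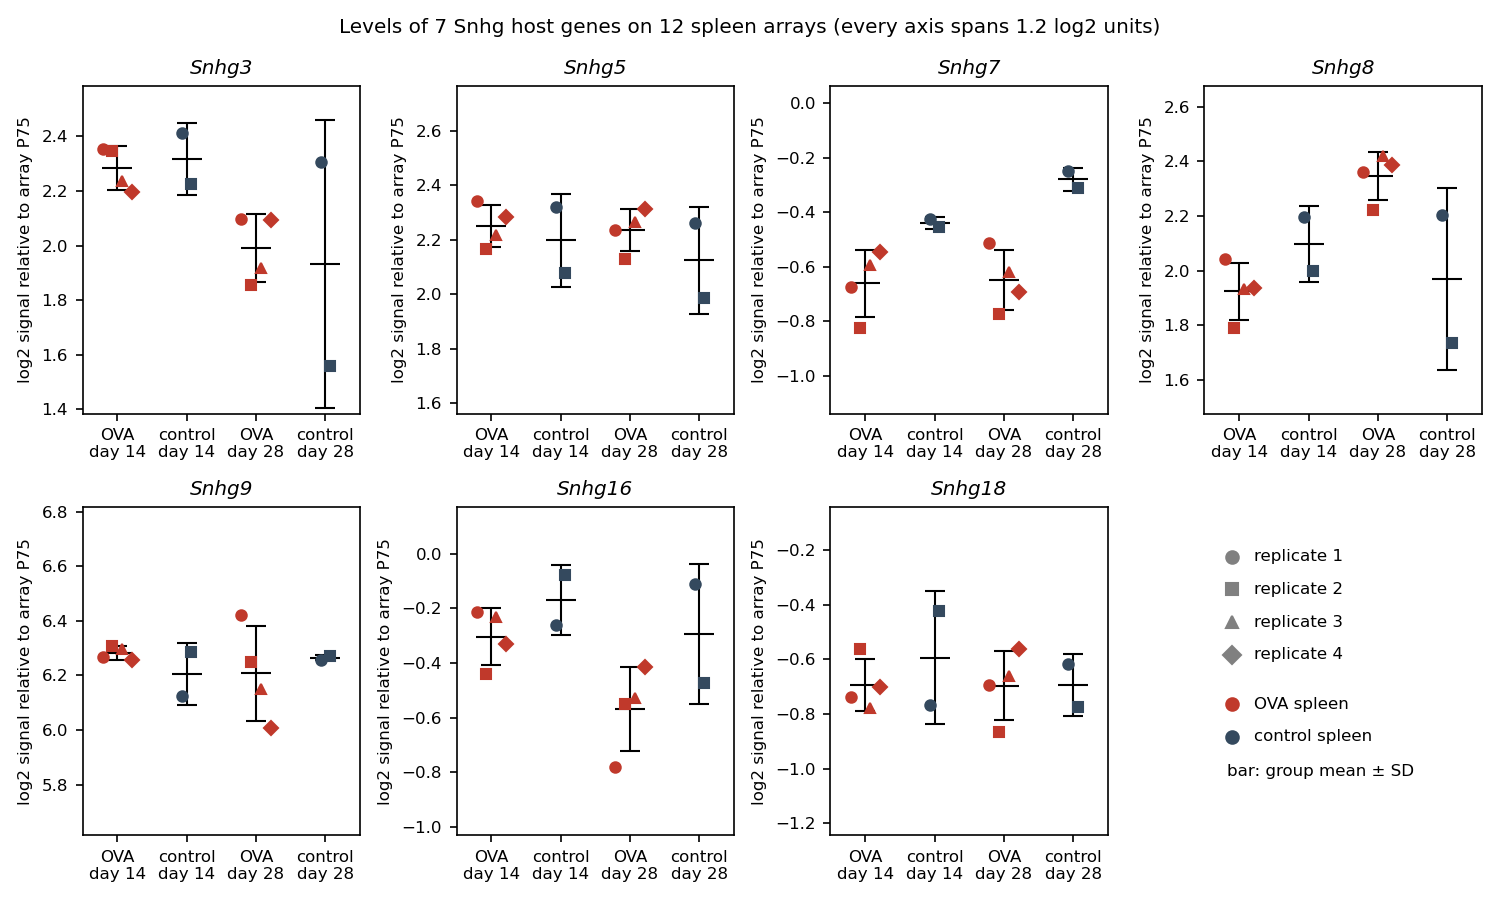
Levels of the 7 Snhg genes on every array (y axis, log2 signal minus the log2 75th percentile; x axis, OVA and control groups of each day). Points are arrays, coloured by treatment and shaped by replicate, and bars give the group mean ± SD. The OVA arrays of Snhg7 lie below the controls on both days, those of Snhg8 are highest at day 28, and control day 28 replicates 1 and 2 lie far apart in Snhg3 and Snhg8.

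Snhg7, a host of H/ACA snoRNAs, was lower in OVA than in control spleens at day 28. Its level was -0.51, -0.77, -0.62 and -0.69 on the OVA arrays of day 28, against -0.25 and -0.31 on the controls of that day. All OVA arrays lay below both controls. The OVA spleens averaged -0.65 ± 0.11 (SD, n = 4) and the control spleens -0.28 ± 0.043 (SD, n = 2), a log2 difference of -0.37 ± 0.11 (SE, 95% interval -0.61 to -0.13; 1.29-fold lower; adjusted p = 0.0436, limma). At day 14 it was -0.67, -0.83, -0.59 and -0.55 on the OVA arrays, against -0.42 and -0.46 on the controls. These groups did not overlap either, but the difference of -0.22 ± 0.11 (SE, 95% interval -0.46 to 0.016) did not pass (adjusted p = 0.372, limma).

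The day 28 call of Snhg7 lay close to the threshold of 0.05. It was kept in 10 of 24 other settings and lost in 14, with differences from -0.47 to -0.33 and adjusted p from 0.0136 to 0.191 (limma). Leaving out single arrays ended it at 8 of 12 arrays: adjusted p was 0.0568, 0.0588 and 0.05002 without OVA day 14 replicate 1, 3 or 4, 0.0994, 0.0777 and 0.0718 without OVA day 28 replicate 2, 3 or 4, and 0.191 and 0.138 without control day 28 replicate 1 or 2 (limma). The median of all features itself moved by -0.12 with normexp background correction of the median spot signal (offset 50). It moved by -0.10 when arrays were scaled on spike-in RNAs. Measured against that median, Snhg7 stood at -0.34 as reported and at -0.18 with normexp. With spike-in scaling it was also -0.34, but this scaling shifts all features of an array alike, so that value could not differ. In bulk spleen RNA, fewer cells of a type and less RNA per cell cannot be told apart.

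Snhg8, the host of Snora24, had the opposite sign at day 28 and rose between days in OVA spleens. Its level was 2.36, 2.22, 2.42 and 2.39 on the OVA arrays of day 28, against 2.21 and 1.73 on the controls. The lowest OVA array and the higher control differed by less than the spread within either group, although the groups did not overlap. The difference was 0.38 ± 0.14 (SE, 95% interval 0.080 to 0.67) and did not pass (adjusted p = 0.0857, limma). It was 0.61 without control day 28 replicate 1 (adjusted p = 0.0385, limma) and 0.14 without control day 28 replicate 2 (adjusted p = 0.589, limma), so the size rests on which control is kept. Of 24 other settings, 3 made it pass, the others being trend and robust variance estimates (adjusted p = 0.0478) and normexp (0.43, adjusted p = 0.0180).

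At day 14 Snhg8 was 2.04, 1.79, 1.93 and 1.93 on the OVA arrays, against 2.20 and 2.00 on the controls. The groups overlapped, and the difference was -0.17 ± 0.14 (SE, 95% interval -0.47 to 0.12; adjusted p = 0.585, limma). It was -0.075 without control day 14 replicate 1 and -0.27 without control day 14 replicate 2. The OVA effect differed between the days by 0.55 ± 0.19 (SE, 95% interval 0.13 to 0.97), which did not pass (adjusted p = 0.126, limma). It was 0.32 without control day 28 replicate 2 (adjusted p = 0.351, limma), and with normexp it was 0.70 and passed (adjusted p = 0.0128, limma).

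Within the OVA spleens, Snhg8 averaged 2.35 ± 0.087 at day 28 and 1.92 ± 0.10 at day 14 (SD, n = 4 each). All 4 arrays of day 28 lay above all 4 of day 14, and the difference of 0.42 ± 0.11 (SE, 95% interval 0.18 to 0.66; 1.34-fold higher) passed (adjusted p = 0.0131, limma). This call was kept in 23 of 24 other settings, and spike-in scaling ended it, at 0.36 (adjusted p = 0.0557, limma). Some of these settings, such as leaving out a control array or averaging the probes of a gene, could not change the difference. They could change only its SE and adjusted p. In the controls the difference between day 28 and day 14 was -0.13 ± 0.16 (SE, 95% interval -0.47 to 0.21; adjusted p = 0.816, limma), and ran from -0.36 without control day 28 replicate 1 to 0.11 without control day 28 replicate 2. The order of its group means was OVA day 28, control day 14, control day 28 and OVA day 14, and only the first gap was free of overlap.

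Snhg3, the host of Snora73a and Snora73b, had a lower mean at day 28 than at day 14 in OVA spleens, without passing. In OVA spleens it was 2.10, 1.85, 1.92 and 2.09 at day 28, against 2.35, 2.35, 2.24 and 2.19 at day 14. In control spleens it was 2.30 and 1.56 at day 28, against 2.41 and 2.22 at day 14. The OVA days did not overlap and differed by -0.29 ± 0.14 (SE, 95% interval -0.60 to 0.016; adjusted p = 0.130, limma), whereas the control days overlapped and differed by -0.39 ± 0.20 (SE, 95% interval -0.82 to 0.050; adjusted p = 0.534, limma). The control value rests on 1 array: it was -0.76 without control day 28 replicate 1 and -0.013 without control day 28 replicate 2 (adjusted p = 0.322 and 0.990, limma).

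The controls of day 28 stood far apart in Snhg3 and differed by 0.75 on the log2 scale, more than in all but 2.54% of features. Without control day 28 replicate 1 or replicate 2, the difference between the OVA days kept its value of -0.29, as no control enters it. Its SE went from 0.14 to 0.090 in either case, because the model estimates 1 spread over all groups. With only the groups compared, this difference passed (adjusted p = 0.0267, limma). OVA minus control was -0.034 ± 0.17 at day 14 (SE, 95% interval -0.41 to 0.34) and 0.059 ± 0.17 at day 28 (95% interval -0.32 to 0.44). The day 28 value was 0.43 without control day 28 replicate 1 and -0.31 without control day 28 replicate 2, neither past the threshold, so no direction can be given.

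Snhg9, the host of Snora78, did not separate OVA from control on either day. Its level was 6.27, 6.31, 6.30 and 6.25 on the OVA arrays of day 14, against 6.13 and 6.29 on the controls. At day 28 it was 6.42, 6.25, 6.15 and 6.01 on the OVA arrays, against 6.26 and 6.27 on the controls. The OVA arrays of day 28 lay on both sides of the control pair. The differences were 0.075 ± 0.11 at day 14 (SE, 95% interval -0.18 to 0.33) and -0.057 ± 0.11 at day 28 (95% interval -0.31 to 0.19), and neither passed (adjusted p = 0.799 and 0.784, limma). Both signs turned with quantile normalization. Whether this probe distinguishes Snhg9 from RNA of the overlapping Rps2 strand was not tested.

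Among the C/D hosts, Snhg16 had its lowest group mean in OVA spleens at day 28. It was -0.78, -0.55, -0.53 and -0.42 on those arrays, against -0.11 and -0.47 on the controls of day 28. At day 14 it was -0.21, -0.44, -0.23 and -0.33 on the OVA arrays, against -0.26 and -0.08 on the controls. The groups overlapped on both days. OVA minus control was -0.28 ± 0.14 at day 28 (SE, 95% interval -0.57 to 0.021; adjusted p = 0.196, limma) and -0.13 ± 0.14 at day 14 (95% interval -0.43 to 0.16; adjusted p = 0.685). The size at day 28 depended on the control kept, with -0.094 without control day 28 replicate 1 and -0.46 without replicate 2. At day 14 it was -0.23 without control day 14 replicate 1, -0.043 without control day 14 replicate 2 and -0.089 without OVA day 14 replicate 2, and none of these passed. Between the OVA days Snhg16 differed by -0.26 ± 0.11 (SE, 95% interval -0.51 to -0.022), which did not pass (adjusted p = 0.0856, limma) except with array weights (-0.30, adjusted p = 0.0316) and with normexp (-0.27, adjusted p = 0.0117). The control days differed by -0.12 ± 0.16 (SE; adjusted p = 0.825, limma), and with 1 control left out this ran from -0.30 without control day 28 replicate 1 to 0.058 without control day 28 replicate 2.

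Snhg18, the host of Snord123, did not separate any groups. It was -0.74, -0.56, -0.78 and -0.70 on the OVA arrays of day 14, against -0.77 and -0.42 on the controls. At day 28 it was -0.69, -0.87, -0.66 and -0.56 on the OVA arrays, against -0.62 and -0.78 on the controls. The differences were -0.10 ± 0.13 at day 14 (SE, 95% interval -0.38 to 0.17) and -0.00067 ± 0.13 at day 28 (95% interval -0.28 to 0.27), with adjusted p of 0.750 and 0.998 (limma).

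Snhg5, whose host RNA SNHG5 has been linked to the survival of human colorectal tumour cells, did not pass in any comparison either. It was 2.34, 2.16, 2.22 and 2.28 on the OVA arrays of day 14, against 2.32 and 2.08 on the controls. At day 28 it was 2.24, 2.13, 2.26 and 2.31 on the OVA arrays, against 2.26 and 1.99 on the controls. All groups overlapped. The differences were 0.053 ± 0.11 at day 14 (SE, 95% interval -0.20 to 0.30) and 0.11 ± 0.11 at day 28 (95% interval -0.14 to 0.36), with adjusted p of 0.866 and 0.557 (limma). The sign at day 14 turned with each of the 4 settings that alter signal or scale, namely normexp, quantile normalization, spike-in scaling and the percentile over detected probes.

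**Figure D2:**
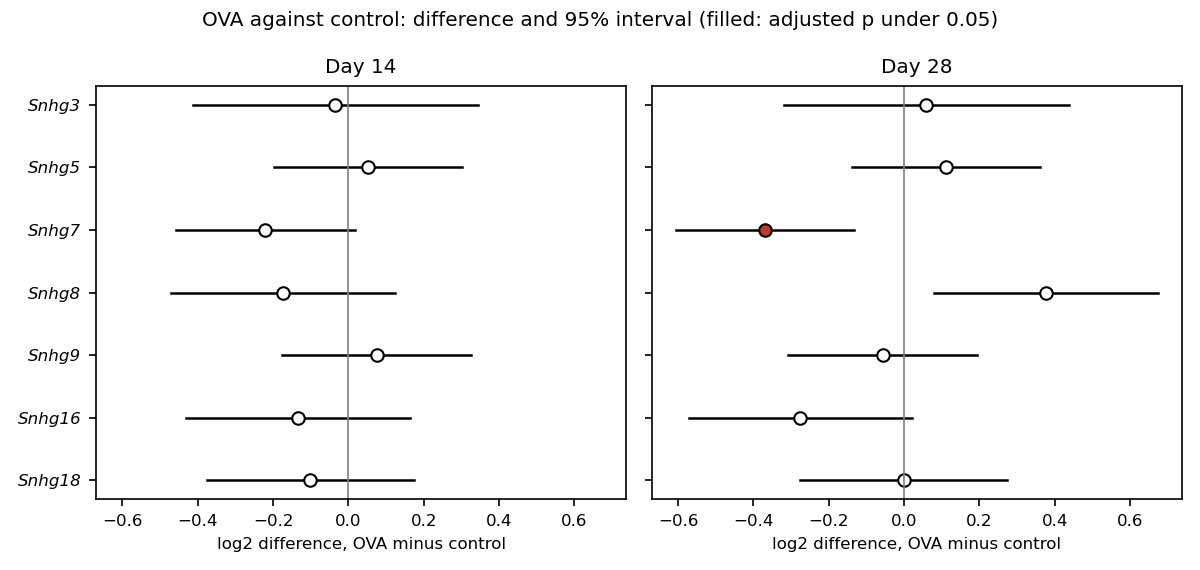
Log2 difference, OVA minus control (x axis), of each Snhg gene at day 14 and day 28, with its 95% interval; filled points have an adjusted p under 0.05 by limma. Snhg7 at day 28, at -0.37, is the filled point, and the interval of Snhg8 at day 28, from 0.08 to 0.67, lies above 0 although its adjusted p of 0.0857 did not pass.

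Counted together, the members showed no shared direction after OVA as reported, but the signs at day 14 depended on the scaling. At day 14, 0 of 7 passed (0.0676% of all features passed), and 0 had an unadjusted p under 0.05 (14.7% of features). There, 2 members had a positive and 5 a negative difference, with a median of -0.10, against 0.046 over all features. With quantile normalization and with spike-in scaling, every member was negative at day 14. Snhg5 turned to -0.021 and -0.15, and Snhg9 to -0.085 and -0.13. The median of all features was then 0.016 and -0.16. As reported, groups at day 14 did not overlap in 1 of 7, Snhg7, and in 23.1% of features. At day 28, 1 of 7 passed, Snhg7, in the lower direction (14.1% of features passed, 6.61% in the lower direction), and 2 of 7 had an unadjusted p under 0.05 (30.2% of features). Groups did not overlap in 2 of 7, Snhg7 and Snhg8, and in 42.2% of features. The median of the members was -0.00067, against -0.034 over all features. A share of 1 or 2 in 7 is near these backgrounds.

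For the difference of the OVA effect between days, 0 of 7 passed (2.95% of features), and 1, Snhg8, had an unadjusted p under 0.05 (22.3% of features). For Snhg7 it was -0.15 ± 0.15 (SE, 95% interval -0.48 to 0.19; adjusted p = 0.602, limma), so the call at day 28 and its lack at day 14 are not shown to differ. This term and the comparison of day 28 share their arrays of that day. It also holds the difference between the slides of the OVA groups, which cannot be told apart from a change in the OVA effect.

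Between OVA day 28 and OVA day 14, 1 of 7 passed, Snhg8, in the higher direction (34.1% of features passed, 15% in the higher direction). Groups did not overlap in Snhg8 and Snhg3, 2 of 7, and in 36.7% of features. The members' differences ran from -0.29 to 0.42 with a median of -0.016, against -0.063 over all features. Snhg7 had a lower mean in OVA than in control spleens on both days, but this passed only at day 28. Between the OVA days Snhg7 differed by 0.012 ± 0.088 (SE, 95% interval -0.18 to 0.21, adjusted p = 0.931, limma). Between control day 28 and control day 14, 0 of 7 passed by limma (0.00138% of features), 0 had an unadjusted p under 0.05 (10.3% of features), and the groups did not overlap in 1, Snhg7 (37% of features). Snhg7 was 0.16 ± 0.13 higher in the controls of day 28 (SE, 95% interval -0.11 to 0.43; adjusted p = 0.693, limma). Its group means were, from the top, control day 28, control day 14, OVA day 28 and OVA day 14, and only the last pair overlapped.

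The 2 controls of day 28 stood apart from each other in several members. Replicate 1 minus replicate 2 was 0.75 in Snhg3, 0.47 in Snhg8, 0.36 in Snhg16 and 0.28 in Snhg5, against 0.06 in Snhg7 and -0.01 in Snhg9. Over all features the median absolute difference of this pair was 0.18, and 11.1% of features differed by more than Snhg8. In Snhg18 it was 0.16, so replicate 2 was the lower control in all members but Snhg9. The paired spots of the 5 members that had 2 spots differed by medians of 0.06 to 0.10, with 0.25 as the highest value in Snhg7 and Snhg16. Snhg3 and Snhg8 were read by 1 spot on each array, so their values have no such check.

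**Figure D3:**
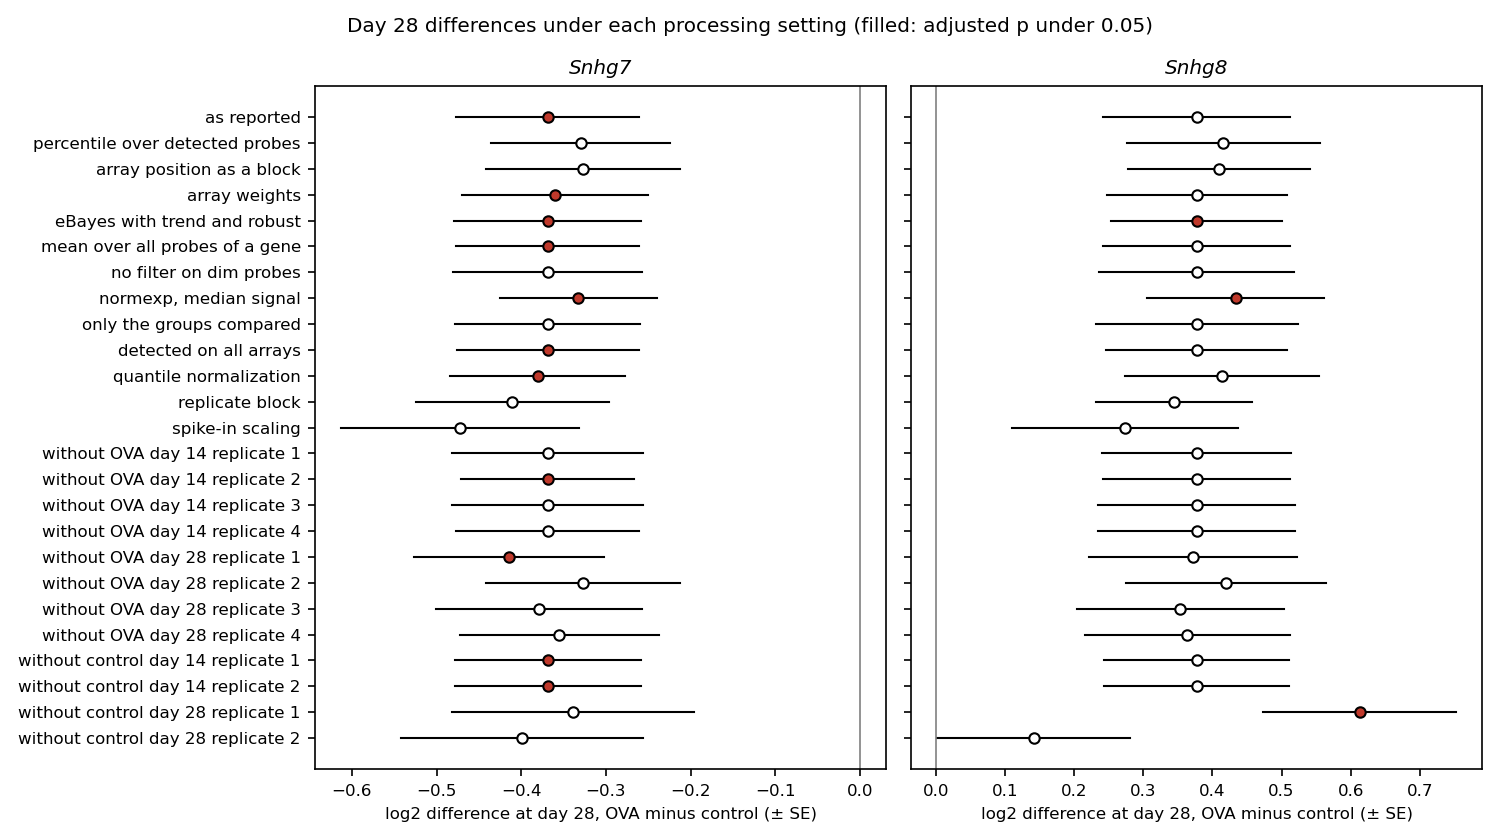
Log2 difference at day 28, OVA minus control (x axis, ± SE), of Snhg7 and Snhg8 as reported and under 24 other settings (y axis); filled points have an adjusted p under 0.05 by limma. Snhg7 stays between -0.47 and -0.33 and is filled in 10 of the 24, and Snhg8 spans 0.14 to 0.61, with both extremes where a control of day 28 is left out.

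Of the wider pathway, 213 genes were listed: other snoRNA hosts, snoRNAs, other structural RNAs, snoRNP proteins and nonsense-mediated decay factors. Only 4 had a named probe, Rpph1, Meg3, Rian and Scarna13. The snoRNP and decay genes could not be read, because probes were named only by accessions of non-coding transcripts. At day 14, 0 of 4 passed (0.0676% of all features), and at day 28, 1 of 4 passed, in the lower direction (14.1% of all features, 6.61% in the lower direction). Rpph1, the RNA component of RNase P, which trims precursor tRNAs, was 5.56, 5.43, 5.53 and 5.37 on the OVA arrays of day 28, against 5.74 and 5.93 on the controls, a difference of -0.36 ± 0.10 (SE; adjusted p = 0.0317, limma). The groups did not overlap, and the call was lost in 12 of 24 other settings, among them leaving out either control of day 28, with -0.46 without replicate 1 and -0.26 without replicate 2 (adjusted p = 0.0551 and 0.215, limma), and leaving out OVA day 28 replicate 2, 3 or 4 (adjusted p = 0.0724, 0.0555 and 0.0563). At day 14 Rpph1 had the opposite sign, at 0.26 ± 0.096 (SE, 95% interval 0.046 to 0.47), with groups that did not overlap, and did not pass (adjusted p = 0.256, limma). The difference of the OVA effect between days was -0.62 ± 0.14 (SE; adjusted p = 0.0396, limma), the 1 of 4 that passed (2.95% of all features), and this call was lost in 17 of 23 other settings, among them leaving out any 1 array other than OVA day 14 replicate 1 or control day 14 replicate 2 (adjusted p from 0.0553 to 0.122).

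Between the OVA days, 2 of these 4 passed, both lower at day 28 (19.1% of features were called lower). Rpph1 differed by -0.42 ± 0.079 (SE; adjusted p = 0.00231, limma). Meg3, an imprinted RNA of the locus that also holds the snoRNA host Rian, was -1.41, -1.48, -1.50 and -1.49 at day 28, against -1.28, -1.10, -1.18 and -1.08 at day 14. These arrays did not overlap, and the difference was -0.31 ± 0.10 (SE; adjusted p = 0.0318, limma). The call was lost in 8 of 24 other settings, among them leaving out replicate 2, 3 or 4 of either OVA group (adjusted p from 0.0612 to 0.0776, limma). For the control days 0 of 4 passed. Rian and Scarna13 passed in no comparison. OVA minus control was 0.38 ± 0.23 in Rian and 0.086 ± 0.19 in Scarna13 at day 14 (SE). At day 28 it was 0.10 ± 0.23 and -0.20 ± 0.19. Rian was well above background on 3 of 4 OVA arrays of day 14.

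As a description of likeness, the named gene whose levels followed each member most closely over the 12 arrays was sought among 158 tested genes with an assigned name. Names rest on accessions of non-coding transcripts. The probes of Prmt6, Khdrbs1 and Cdk3 are therefore assigned to a non-coding transcript of the gene, and their coding mRNAs were not read. Arrays share slide and group, so these correlations hold differences between groups as well as between spleens. Prmt6, the gene of an arginine methyltransferase, followed Snhg9 with a Pearson r of 0.87, or 0.51 without the OVA arrays of day 28, and Smc2os followed Snhg5 with 0.85. Khdrbs1, the gene of an RNA-binding protein, followed Snhg8 with 0.82, or 0.40 without those arrays. Particl followed both Snhg3 (0.80) and Snhg16 (0.72), Cdk3, the gene of a cyclin-dependent kinase, followed Snhg7 (0.76), and Fam120aos followed Snhg18 (0.69). With group means removed, r was 0.47 for Snhg7 and 0.44 for Snhg8, and 0.61 to 0.90 for the others. By ranks, the correlation was 0.71 for Snhg9, 0.68 for Snhg5 and 0.66 for Snhg3, and 0.77 to 0.87 for the others. Each gene was picked as the highest of 158, so a high r follows in part from the choice.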

How the data were processed

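Spleen RNA was measured on 12 single-colour arrays. The deposited scanner files give spot intensity on a linear scale, background-corrected by version 11.5.1.1 of Agilent Feature Extraction, per the file headers; the submitters' processing notes name version 9.1. The deposited series table, in log2 units, has 39027 rows and 0 member probes and was not used. Spots flagged as outliers or controls were left out, the processed signal was put on the log2 scale, the array's 75th percentile was subtracted and spots of a probe were averaged. Names came only from RefSeq accessions of non-coding transcripts (GRCm38.p6, 4658 of 13019 RefSeq probes, 4290 genes). A feature entered the test if, in 1 group or more, its spots stood well above background throughout. All arrays entered 1 limma 3.58.1 model (R 4.3.3) with 4 groups and 8 residual degrees of freedom; two-sided p-values were Benjamini-Hochberg adjusted over 72515 features, with 0.05 as threshold. The number of arrays limits the precision. The model was tested on simulated data. The members, lists and tests were chosen with earlier results of these data known. All members are named, the pathway genes follow a fixed list, and likeness names 1 gene per member, never one with a Gm, LOC, Rik or clone symbol. Alternatives changed background correction, scaling, filter, variance model, samples and blocks.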

Additional observations from a re-analysis of the deposited data

How the results depend on the processing

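Of the 24 settings other than the one reported (23 for the difference of OVA effects, where fitting only the groups compared is the same fit), the count of 0 Snhg genes passing at day 14 and between control days never changed. At day 28 the count of 1 became 0 with the percentile over detected probes, array position as a block, no filter on dim probes, only the groups compared, spike-in scaling and the replicate block, became 2 (with Snhg8 added) with trend and robust and with normexp, and was 0 to 1 (Snhg7) when 1 OVA array was left out. Between OVA days the count of 1 became 2 with array weights, normexp and only the groups compared, became 0 with spike-in scaling, and was 1 to 2 with 1 array left out. For the difference of OVA effects, 1 gene passed with normexp in place of 0. With the replicate block Snhg7 at day 28 was -0.41 (adjusted p = 0.0590, limma). Arrays of the same number correlated at -0.18 to 0.32 in their deviations from group means (median 0.01), against -0.37 to 0.37 for other numbers, so the numbers are not shown to pair the spleens. Signs turned in 10 of 168 values at day 14, 10 of 168 at day 28, 7 of 161 for the difference of effects, 16 of 168 between OVA days and 10 of 168 between control days; none of the values turned had passed, and the largest of them as reported was 0.16 in size. Snhg18 at day 28 became 0.038 with the percentile over detected probes and 0.018 with array position as a block, and Snhg9 at day 28 became 0.055 with quantile normalization and 0.0099 with the replicate block. Snhg3 at day 28 became -0.044 with spike-in scaling. At day 14 Snhg5 became -0.018 with the percentile over detected probes, -0.031 with normexp, -0.021 with quantile normalization and -0.15 with spike-in scaling, and Snhg9 became -0.085 with quantile normalization and -0.13 with spike-in scaling. Snhg7 between OVA days became -0.0040 with array weights, -0.048 with normexp and -0.048 with spike-in scaling, and between control days -0.00024 with spike-in scaling. With 1 array left out, values that turned spanned -0.13 to 0.059 in Snhg3, -0.068 to 0.17 in Snhg5, -0.0047 to 0.16 in Snhg9 and -0.27 to 0.071 in Snhg18 at day 14, and -0.31 to 0.43 in Snhg3, -0.027 to 0.25 in Snhg5, -0.13 to 0.0096 in Snhg9 and -0.081 to 0.079 in Snhg18 at day 28. Between OVA days Snhg7 spanned -0.043 to 0.053, and between control days Snhg8 spanned -0.36 to 0.11 and Snhg16 -0.30 to 0.058. The cause of these turns was not tested. The number of all features passing moved as well: at day 14 it was 260 with normexp, 146 with quantile normalization, 27 with spike-in scaling and 12 with the percentile over detected probes, against 49 as reported, at day 28 it was 27651 with normexp against 10191, between OVA days 47594 with normexp against 24708, and for the difference of effects 22051 with normexp and 870 with spike-in scaling against 2138. The deposited values could not serve as an alternative, since their table holds no member probe, and the slide could not be fitted as a block because each OVA group fills a slide of its own. Scaling shifted the median of all features by -0.20 at day 14 with spike-ins. Relative to the 75th percentile of the array, all 8 spike-ins read higher on the OVA arrays (by 0.12 to 0.39). That percentile was itself lower on the OVA arrays of day 14, at 267 to 288 signal units, against 368 and 320 on the controls of that day.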
